A study of Mus musculus with 18 samples.

Results

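Motor neurons of SOD1 G93A mice were compared with those of non-transgenic littermates at 120 days of age, the late stage of this model. The comparison rests on the 6 arrays whose sample labels give that age, 3 of G93A animals and 3 of controls, out of the 18 arrays of the series. No measured value was used to choose them. The other 12 arrays hold the same genotypes at 60 and 90 days, with 3 animals in each group, and enter as the background for age. All animals were mice (Mus musculus). The G93A animals carried mutant human SOD1, the gene of cytosolic copper-zinc superoxide dismutase. The controls lacked it. The sources used here do not give the strain, the sex or the promoter of the transgene. From each animal, 1000 motor neurons were cut by laser from frozen sections of the lumbar spinal cord, 10 µm thick and stained with toluidine blue. The RNA of these cells was pooled, labelled with biotin and hybridised to 1 array, so that each array stands for 1 animal.

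Spinal motor neurons are large cells that send their axons out of the spinal cord to skeletal muscle, and they depend on neurofilaments, on transport along microtubules and on a high supply of ATP. Mutant SOD1 causes an inherited form of amyotrophic lateral sclerosis, in which these cells degenerate while the microglia and astrocytes around them become reactive. A laser cut around a stained cell body can also take in the processes of neighbouring glia and the synapses on its surface.

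The values are hybridisation signals per probe set on a linear scale, with values under 1 set to 1. Differences are G93A minus control on the log2 scale, with the standard error after ±, and were tested with limma over 16565 probe sets. These represent 10051 genes, and a gene with several probe sets is given by the one with the highest mean level among those tested. Probe sets with the suffix _x_at, which share probes with unrelated transcripts, stood for a gene only where no other was tested. This exception was not made for the suffix _s_at, whose probes match several transcripts, as in Mt1, Gfap, Canx, Derl1 and Sdha. Groups are called non-overlapping where all 3 G93A signals lie above, or all 3 below, the 3 control signals. Among all genes this held upward for 952 (9.47%) and downward for 667 (6.64%). In the brighter part of the genes, split at the median level, the shares were 8.83% upward and 9.63% downward. The median standard error of a difference was 0.69, so most single genes could not be resolved with 3 animals a group. A leave-one-out range beside a median is that over fits with each of the 18 arrays left out in turn. The labels do not say more about how the animals were chosen, and p-values measure the spread between these animals. Fewer cells of a type and less RNA per cell cannot be told apart in such pooled samples.

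The arrays themselves differed in ways that touch every result. The median signal was 52, 54.8 and 56 on the G93A arrays and 37, 46.4 and 47.8 on the control arrays, without overlap (exact permutation test, two-sided, p = 0.1, the smallest that 3 against 3 allows). Control replicate 1 stood apart: it had the lowest median, the lowest level of the hybridisation controls and 254 values below 1, against 0 to 25 on the other 5 arrays. Control replicate 3 had the highest ratio of 3' to 5' actin probe sets, a measure of RNA integrity and of shortening in amplification, at 8.4 on the log2 scale against 4.62 to 7.16 on the other 5. The mean of this ratio was 6.2 in G93A and 5.95 in controls (exact permutation test, two-sided, p = 0.8). The same ratio of the Gapdh probe sets did not single out control replicate 3, at 4.73 against 4.22 to 5.57 on the other 5. It was highest on G93A replicate 3, with means of 4.94 in G93A and 4.48 in controls (exact permutation test, two-sided, p = 0.3). Leaving out control replicate 3 raised the number of probe sets past the threshold at 120 days from 4 to 141. The part of RNA integrity in these results was not tested. Control replicate 1 held the lowest of the 6 signals for 24.6% of genes. Between arrays, the correlation over probe sets was 0.683 to 0.71 within G93A, 0.741 to 0.767 within controls and 0.657 to 0.746 between the groups. The median difference over all genes was 0.07 as deposited, 0 without control replicate 1, and -0.25 with the median of every array set equal. Small positive and negative medians of gene groups are therefore to be read against those values. Without control replicate 1, no overlap of 3 against 2 held upward for 12.5% of genes and downward for 10.7%. With the array medians set equal, it held upward for 458 genes (4.56%) and downward for 1353 (13.5%), so the balance between the directions depended on the scaling. The median over all genes was then -0.25 in place of 0.07, and each positive list median of 0.29 or less became negative.

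The captured material held transcripts of several cell types in both groups. Of 8 listed motor neuron markers 5 were tested, and the sum of their signals was 782.1 to 1212 in G93A and 1217 to 3852 in controls. Of the 5, 2 had a positive difference, and 1 lay below the controls without overlap. Nefh alone had 3126, 1044 and 843 in controls, a large part of this sum. Slc5a7, Slc18a3 and Calca were not tested. Of 10 microglial markers 8 were tested, 7 of them with a positive difference and 5 without overlap. Their sum was 8151 to 15050 in G93A against 2610 to 5245 in controls. Most of this sum was Csf1r alone, with 13708, 9708 and 6872 in G93A and 2375, 2484.5 and 4619.8 in controls. The sum thus describes mainly that gene. Aif1 and Itgam did not pass the filter on low signals. The sum of 8 astrocyte markers was 6167 to 8840 against 4447 to 7147, and that of 6 oligodendrocyte markers 12280 to 19090 against 14160 to 21330. The erythrocyte sum over 3 genes was 127.8 to 135 against 40.3 to 99.4. The part that glial transcripts play in the differences given here was not tested.

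Of the 16565 probe sets, 4 (0.0241%) passed an adjusted p of 0.05 by limma: 3 were higher in G93A than in controls (0.0181%) and 1 was lower (0.00604%). At an unadjusted p below 0.05 there were 2022 (12.2%). The genes higher in G93A were Mt1, which encodes a small metal-binding protein, Lgals3, the galectin of activated phagocytes, and Galnt2, an enzyme that starts O-linked glycans. Tsc22d1, a leucine-zipper transcriptional regulator, was lower.

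The Mt1 signal was 9723, 11202 and 5528 in G93A animals and 1267, 1577 and 2992 in controls. All 3 G93A animals lay above every control. The difference was 2.22 ± 0.36, or 4.65-fold (limma adjusted p = 0.0376). A second Mt1 probe set gave 1.63 ± 0.82. It lay above the array median on 4 of 18 arrays, all G93A arrays of this age among them. It passed the filter only through these arrays and is no separate support. Mt2, the neighbouring metallothionein gene, had 2869, 2277 and 1063 against 365, 782 and 1609.5, with control replicate 3 above the third G93A animal and a difference of 1.31 ± 0.40. Mt3, the brain form, had a difference of -0.62 ± 0.69. Of the 21 tested genes of metal handling, Mt1 was the only one past the threshold, and 2 lay above and 1 below the controls without overlap. The zinc transporter Slc39a1 had 216, 240.5 and 88.1 against 29.1, 28.7 and 82.2 and a difference of 2.02 ± 0.73. Slc39a6, another zinc transporter, had 92.9, 106 and 124 against 1159.7, 145 and 147, where control replicate 1 sets the size: the difference was -1.45 with it and -0.45 without it.

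Metallothionein genes are known to be switched on by metal through short metal response elements in their promoters. The promoters of the 3 genes are shown because Mt1 and Mt2 stand side by side while their values differ from those of Mt3. Each runs from 250 bases before to 50 after the start of the gene, on the + strand of chromosome 8 (RefSeq, GRCm38.p6): Mt1 at chr8:94178839-94179138, Mt2 at chr8:94172368-94172667 and Mt3 at chr8:94152357-94152656. Capitals mark matches to the element's core, TGCACNC or TGCGCNC, on either strand.
Mt1: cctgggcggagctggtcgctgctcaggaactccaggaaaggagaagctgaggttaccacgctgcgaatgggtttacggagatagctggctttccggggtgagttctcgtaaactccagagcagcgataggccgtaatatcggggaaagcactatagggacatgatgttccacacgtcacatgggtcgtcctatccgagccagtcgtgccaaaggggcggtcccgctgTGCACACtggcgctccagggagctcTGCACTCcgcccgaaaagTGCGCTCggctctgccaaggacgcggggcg
Mt2: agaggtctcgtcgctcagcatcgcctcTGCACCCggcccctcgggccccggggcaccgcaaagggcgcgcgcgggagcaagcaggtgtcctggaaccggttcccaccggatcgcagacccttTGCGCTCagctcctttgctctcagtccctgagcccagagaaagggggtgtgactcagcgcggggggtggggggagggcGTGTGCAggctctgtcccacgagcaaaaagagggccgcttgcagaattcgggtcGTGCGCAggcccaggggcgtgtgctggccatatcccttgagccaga
Mt3: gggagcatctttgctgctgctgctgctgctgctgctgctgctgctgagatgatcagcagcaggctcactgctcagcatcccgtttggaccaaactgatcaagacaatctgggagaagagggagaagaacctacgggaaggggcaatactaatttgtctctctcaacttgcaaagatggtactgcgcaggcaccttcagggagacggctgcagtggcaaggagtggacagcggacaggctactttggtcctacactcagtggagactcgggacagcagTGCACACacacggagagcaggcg
The Mt1 window held 3 matches, that of Mt2 held 4 and that of Mt3 held 1. Of 32851 RefSeq promoter windows of this length, 25.7% held at least 1 match, 7.11% at least 2, 1.97% at least 3 and 0.517% at least 4. A match is a run of letters and not a shown binding site.

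Lgals3 had signals of 768, 1124 and 1136 in G93A and 12.2, 89.9 and 218 in controls, so the groups were far apart but the controls themselves spread widely. The difference was 4 ± 0.72 (limma adjusted p = 0.0465). It was 2.83 without control replicate 1, whose signal was the lowest, and 4.91 without control replicate 3, whose signal was the highest. Galnt2 had 42.8, 62.1 and 119 against 2.5, 1 and 2.6, and its fitted difference of 5.19 (limma adjusted p = 0.0465) starts from control signals at or near the floor of 1, so its size is not resolved. Its 2 other probe sets did not pass the filter. The tested one lay above the array median on 4 of 18 arrays and would not have passed without the G93A arrays of this age. From the mean of 60 and 90 days, the log2 level of Galnt2 changed by -3.53 ± 0.82 in controls and by 0.87 ± 0.82 in G93A. The larger move was thus in the controls. Tsc22d1 had 289, 626 and 382 against 3512, 1708 and 1196, lower in every G93A animal, with a difference of -2.23 ± 0.39 (limma adjusted p = 0.0465) and of -1.80 without control replicate 1. Its 5 other tested probe sets ranged from -1.86 to -0.41. None of the other genes named here passed the threshold at 120 days, and their values describe these 6 arrays.

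Beyond these 4, the values of smallest p without overlap named genes of several kinds. On the positive side were Sdc4 (1.98), C1qa (2.50), Vim (2.79), Tyrobp (2.51) and Csf1r (1.69), described with their groups. With them were Med14, a Mediator subunit, with 3.80 ± 0.89, and Rapgef3, an exchange factor driven by cyclic AMP, with 1.45 ± 0.35. The Med14 signals were 51.2, 72.7 and 69.8 against 3.1, 4.9 and 6.3. The controls were near the floor, so the size of its difference is not resolved. Med14 lay above the array median on 5 of 18 arrays. On the negative side, next to subunits of the respiratory chain, were Btbd10 with -1.88 ± 0.41, Prps1, an enzyme of nucleotide synthesis, with -2.74 ± 0.60 (-3.44 without G93A replicate 2), and Aff4, a scaffold of the super elongation complex, with -3.06 ± 0.69. The Aff4 signals were 61, 4.5 and 18.5 against 212, 112 and 124. Its difference was -2.09 without G93A replicate 2 and -3.97 without G93A replicate 1, while another Aff4 probe set had 0.79.

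**Figure D1:**
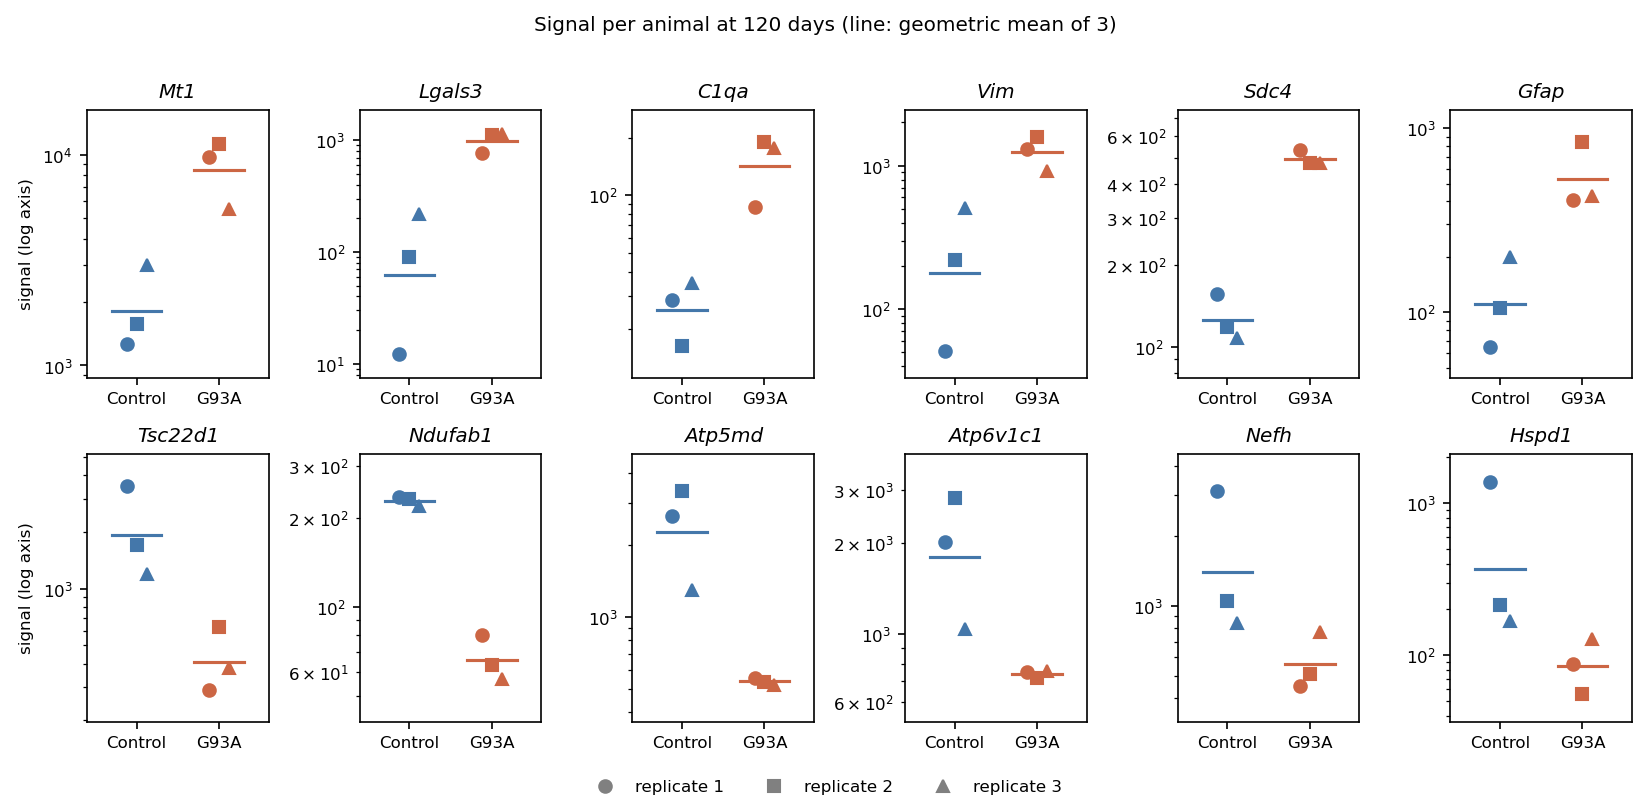
Signal of each animal at 120 days on a log axis, control in blue and G93A in orange, with marker shape for the replicate and a line at the geometric mean of 3, for 6 genes with positive (top) and 6 with negative differences (bottom). In every panel the 3 G93A points lie on one side of the 3 controls, and control replicate 1 is the lowest point for Lgals3 and Vim and the highest for Nefh and Hspd1.

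Of 32 tested microglia and macrophage markers 29 had a positive difference. Of the 32, 14 lay above all controls and 1 below, with a median difference of 0.90 against 0.07 over all genes. Without the filter on low signals these counts were 15 and 1 of 36, beside 9.65% and 5.76% of all genes. Without control replicate 1 the list's median was 0.69, with 15 above and 2 below the remaining controls. Centred on the array medians its median was 0.59.

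C1qa, a chain of the first complement component, had 87.2, 189 and 177 in G93A against 28.4, 16.4 and 34.7, and a difference of 2.50 ± 0.48 (limma adjusted p = 0.0505). Csf1r, the receptor that keeps microglia alive, had 13708, 9708 and 6872 against 2375, 2484 and 4619.8 and a difference of 1.69 ± 0.40. Tyrobp, the signalling adaptor of microglial surface receptors, had 983, 1239 and 796 against 97.5, 152 and 353, a difference of 2.51 ± 0.58. All 3 genes separated the groups completely, and in Csf1r and Tyrobp control replicate 3 was the control nearest to the G93A animals. Cd52, a small surface glycoprotein of leukocytes, had 205, 233 and 209 against 38.6, 70.4 and 55.5 (2.02 ± 0.70), and Ly86, a partner of a lipopolysaccharide-sensing receptor, had 450, 496 and 278 against 67.1, 80 and 92.5 (2.32 ± 0.81). P2ry12, the ADP receptor known as a marker of resting microglia, had 24.8, 78.3 and 47.1 against 17.8, 3.8 and 12, low signals in both groups and a difference of 2.27 ± 0.87 (1.62 without control replicate 2). In the low-affinity IgG receptor Fcgr3 control replicate 1 stood at 3, and the difference of 2.13 was 0.96 without it. Fcgr3 lay above the array median on 5 of 18 arrays and would not have passed the filter without the G93A arrays of this age.

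Genes of the activated, phagocytic state of microglia had positive differences in 25 of 27 tested members. Of the 27, 12 lay above all controls and 0 below, with a median of 1.17 (leave-one-out 0.99 to 1.48), and of 0.85 after centring. Of the 27, 23 would have passed the filter without the G93A arrays of this age. Lpl and Cst7, each above the array median on 5 of 18 arrays, would not. Lpl, lipoprotein lipase, had 136, 159.5 and 96.1 against 12.6, 38 and 11.1 and a difference of 2.87 ± 0.81. Itgax, the integrin also known as CD11c, had 119, 111 and 114 against 18.2, 24.7 and 45.7 (2.07 ± 0.59), with G93A signals close together. Cst7, an inhibitor of cathepsins, had 109, 97.3 and 62.5 against 2.4, 9.3 and 10.5. Its difference of 3.82 ± 1.15 rests on controls near the floor and was 3.14 without control replicate 1. Lyz2, macrophage lysozyme, differed by 2.34 ± 0.89 (1.3 without control replicate 1) and Clec7a, a receptor for fungal glucans, by 0.96 ± 0.43. Grn, the precursor of granulins, overlapped between the groups at 0.87 ± 0.41.

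The letters GAGGAA, the core of the purine-rich element that the myeloid factor PU.1 is known to bind, were searched on both strands of the same promoter windows. They were present in 12 of the 23 microglial markers with a window (52.2%). Of the 10 of these without overlap upward, 6 held them (60%). They were also present in 9 of 21 phagocyte activation genes (42.9%). Among the 8 of these without overlap upward the share was lower, at 37.5%. It was 30.8% among all tested genes with a window. These shares are descriptions, with few genes in each list.

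Among 12 tested complement genes 5 lay above all controls and 0 below, with a median of 0.93 (leave-one-out 0.57 to 1.25, lowest without control replicate 1). Cfb, the protease subunit of the alternative pathway, had 62.7, 122 and 51.9 against 9, 5 and 10.7 and a difference of 3.23 ± 0.86, from low control signals. C1qc had 172, 170 and 147 against 27, 72.6 and 136, with the control values spread over the whole range up to the G93A level. Its difference was 1.34 ± 0.75, and 0.71 without control replicate 1. Serping1, the inhibitor of the first component, overlapped at 0.86 ± 0.43.

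Markers of reactive astrocytes and glial scar gave a mixed picture that depended on control replicate 1. Of 26 tested members 5 lay above and 1 below all controls, with a median of 0.59 that became 0.10 without that array. Gfap, the astrocyte intermediate filament, had 406, 846 and 428 against 65, 105 and 199, without overlap and with a difference of 2.25 ± 0.57. Vim, vimentin, had 1311, 1575 and 919 against 51.2, 220.3 and 507 and a difference of 2.79 ± 0.60 (limma adjusted p = 0.0708), which was 1.89 without control replicate 1. Sdc4, a heparan sulphate proteoglycan of the cell surface, had 532, 476 and 478 against 156, 118 and 108, tight in both groups, with 1.98 ± 0.37 (limma adjusted p = 0.0505). Timp1, an inhibitor of matrix proteases, had 180.3, 52.5 and 121 against 5.2, 10.9 and 65 and overlapped, at 2.76 ± 1.08. Its difference was 1.97 without control replicate 1 and 3.80 without control replicate 3.

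The 22 tested general astrocyte markers had a median of 0.24 (-0.08 after centring, leave-one-out -0.04 to 0.44), with 2 above and 2 below all controls. They thus did not share one direction. Slc4a4, a bicarbonate cotransporter, had 711, 616 and 436 against 83, 246 and 302 (1.65 ± 0.59). Aqp4, the water channel of astrocyte endfeet, had 675, 996 and 284 against 257, 178 and 341 and overlapped (1.2 ± 0.48). Sparcl1, a matrix protein that supports synapses, lay the other way, with 291, 257 and 152 against 855, 427 and 393 and a difference of -1.22 ± 0.48.

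Antigen presentation and interferon genes had 6 of 25 tested members above all controls and 0 below, with a median of 0.65 (leave-one-out 0.29 to 0.73, lowest without G93A replicate 1). Without the filter it was 10 of 34. Irf9, a transcription factor of the interferon response, had 176, 80.2 and 102 against 39.6, 46.8 and 32.1 (1.53 ± 0.64). Ifit1, an interferon-induced antiviral protein, had 94, 62.4 and 70.8 against 49.3, 11.9 and 31.2 (1.5 ± 0.77), and Ifitm3 had 507, 305 and 298 against 140, 276 and 270.5 (0.71 ± 0.44). The chemokine Ccl5, counted among the T cell genes, had 118, 358 and 88.7 against 5.4, 25 and 24.4 and a difference of 3.39 ± 0.92 (2.65 without control replicate 1). Ccl5 lay above the array median on 5 of 18 arrays and would not have passed the filter without the G93A arrays of this age. The other 9 tested T cell genes overlapped between the groups, and Cd3g did not pass the filter. Extracellular matrix genes had 5 of 41 members above and 2 below, with a median of 0.38 (leave-one-out 0.18 to 0.49, lowest without control replicate 1).

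Lysosomal genes lay on both sides. Of 36 cathepsins and lysosomal hydrolases 8 lay above and 3 below the controls, with a median of 0.17 (-0.15 after centring, leave-one-out 0.06 to 0.37). Of 17 subunits of the vacuolar proton pump, which acidifies lysosomes and synaptic vesicles, 0 lay above and 5 below, with a median of -0.65 (leave-one-out -0.92 to -0.41, highest without control replicate 1). The hydrolase Hexa had 436, 390.4 and 508 against 202, 178 and 252 (1.09 ± 0.46), and the cathepsin Ctsz had 198, 499 and 237 against 80, 79.6 and 162 (1.5 ± 0.64). Psap, the precursor of lipid-degradation cofactors, had 470.1, 335 and 345 against 283, 204 and 148 (0.89 ± 0.34). In contrast Lamp1, a major protein of the lysosomal membrane, had 844, 1244 and 1337 against 2199, 1768 and 1397 and a difference of -0.65 ± 0.28. Scarb2, also of that membrane, differed by -0.68 ± 0.31. Among the pump subunits Atp6v1c1 had 752, 716 and 754 against 2012, 2821 and 1040.4 (-1.29 ± 0.35), uniform in G93A and spread in controls. Atp6v1b2 had 9, 11.2 and 68.9 against 546, 215 and 108, a difference of -3.61 ± 0.80 that was -2.99 without control replicate 1. Atp6v1g1 had 1590.5, 1519.8 and 1583 against 4445, 3518 and 2372 (-1.09 ± 0.31), but its 2 other tested probe sets had positive values.

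**Figure D2:**
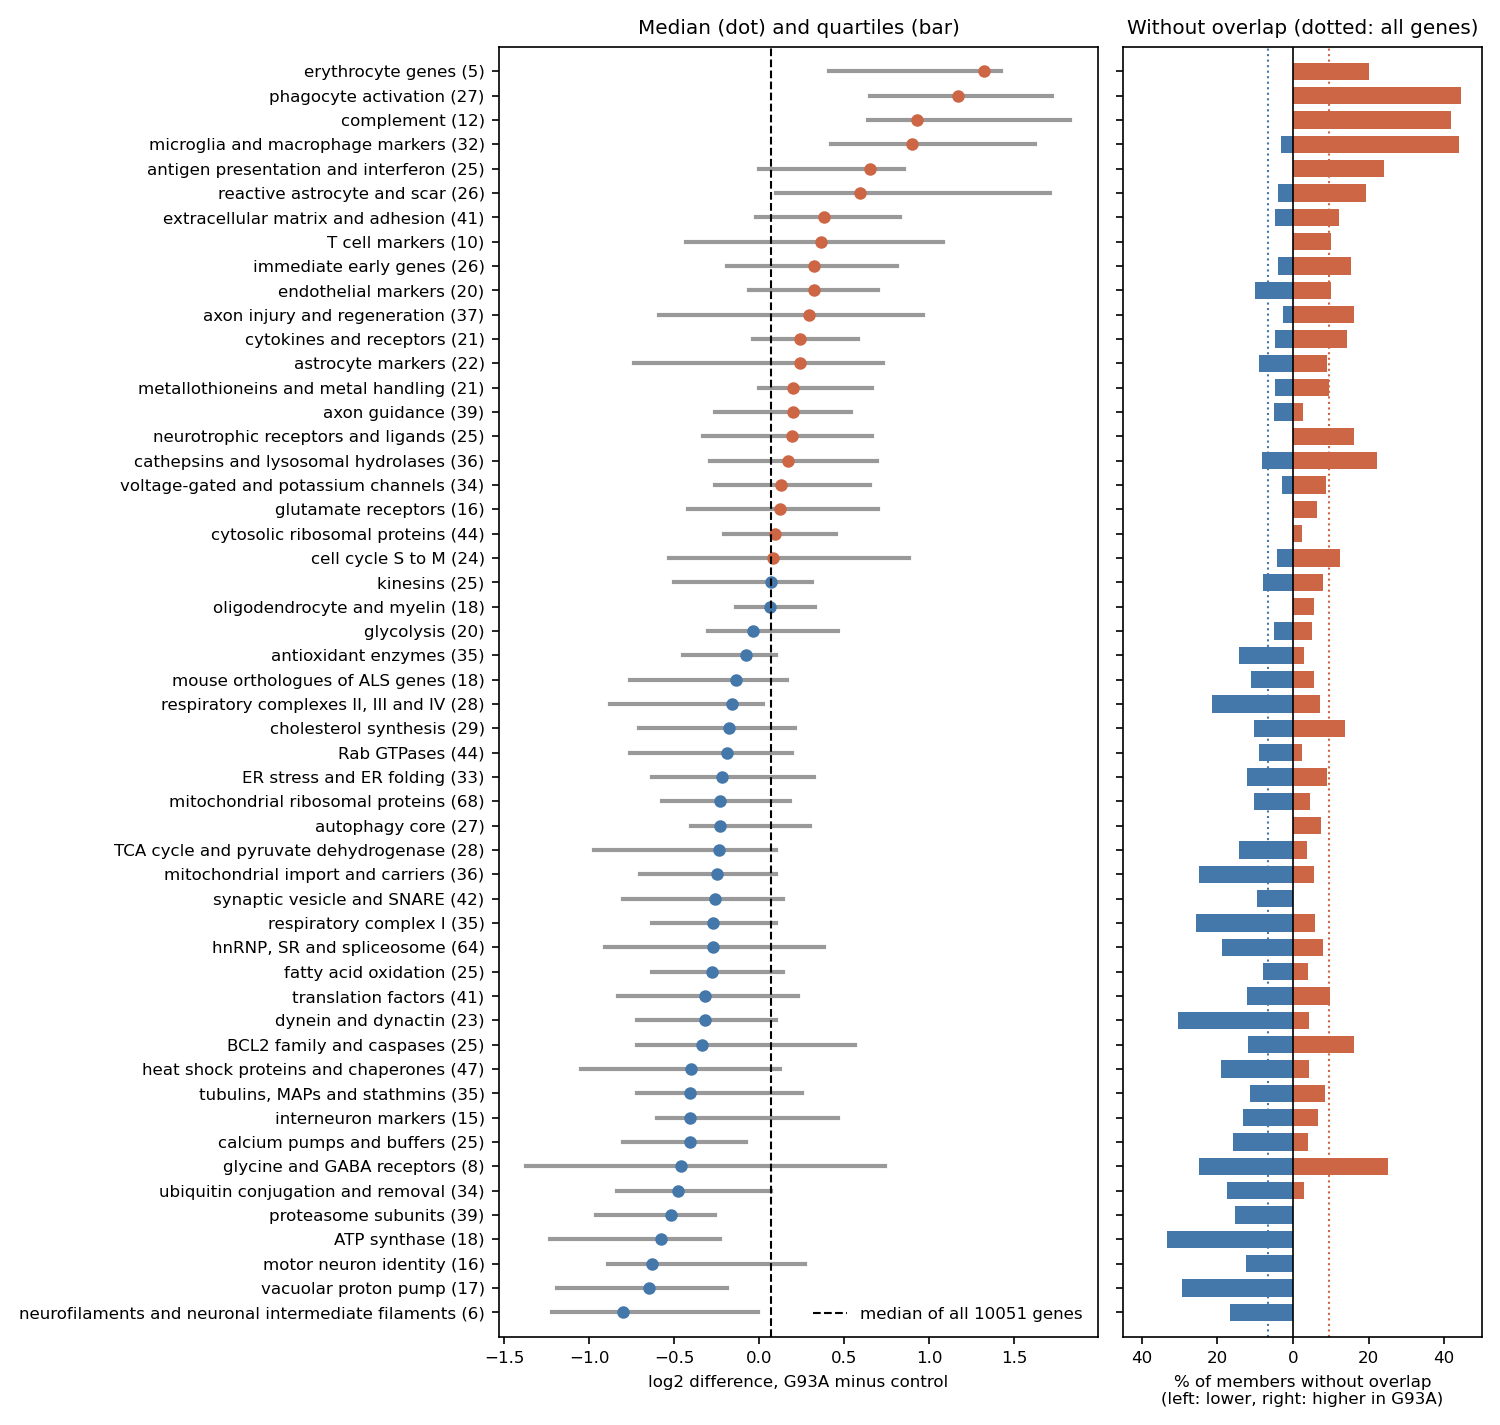
Left, median (dot) and quartiles (bar) of the log2 difference, G93A minus control at 120 days, over the tested members of each gene list (number in brackets), with the median of all genes as a dashed line. Right, percent of members below (left) or above (right) all controls, with the shares over all genes dotted. The highest median is that of 5 erythrocyte genes (1.32), followed by the phagocyte, complement and microglial lists with 1.17, 0.93 and 0.90. The lowest is that of 6 neuronal intermediate filaments (-0.80, and -0.42 without control replicate 1). The proton pump, motor neuron and ATP synthase lists lie near it with -0.65, -0.63 and -0.58.

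Genes known to respond to axon injury included some of the larger positive values. Of 37 tested members 6 lay above and 1 below the controls, with a median of 0.29 (-0.03 after centring, leave-one-out 0.22 to 0.51). Atf3, the transcription factor induced in injured motor neurons, had 204, 111 and 145 against 6.3, 56.7 and 16.5 and a difference of 3.04 ± 0.86, or 2.28 without control replicate 1. Sprr1a, a protein known from regenerating axons, had 134, 81.8 and 133 against 27.3, 12.9 and 17.9 (2.62 ± 0.66). Basp1, a growth-cone protein, had 568, 1001 and 572 against 1054, 1092 and 1094, a difference of -0.65 ± 0.29. The small heat shock protein Hspb1 overlapped, at 0.87 ± 0.34. Of 26 immediate early genes 4 lay above and 1 below, among them Fosl1 of the AP-1 family with 2.35 ± 0.97 and, downward, Ier3 with -1.09 ± 0.39. The Fosl1 difference was 1.74 without control replicate 3 and 3.05 without control replicate 1.

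Stress genes of the endoplasmic reticulum did not share a direction: 3 of 33 lay above and 4 below, with a median of -0.22. Chac1, a glutathione-degrading target of the unfolded protein response, had 432, 236 and 462 against 229, 199 and 195 (0.80 ± 0.38). Ddit3, the factor CHOP of the same response, had 523, 313 and 553 against 16.6, 202 and 359, with overlap in control replicate 3 and a difference of 2.08 ± 0.78 that was 0.74 without control replicate 1. Canx, the membrane chaperone calnexin, had 492, 866 and 589.6 against 1384, 1295 and 1288 (-1.07 ± 0.34), although 1 of its 2 other tested probe sets had the opposite sign. Derl1, of the retrotranslocation machinery, had 1174, 1637 and 1387 against 2356, 2250.3 and 1866 (-0.63 ± 0.31). In the BCL2 family and caspases 4 of 25 lay above and 3 below. Bnip3, a mitochondrial member, had 188, 207 and 224 against 761, 359 and 308, a difference of -1.09 ± 0.36.

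Genes that mark motor neurons had a negative median that depended on 1 array. Of 16 tested members of the motor neuron list 0 lay above and 2 below the controls, with a median of -0.63 (leave-one-out -0.85 to -0.09). It was -0.09 without G93A replicate 2. Without control replicate 1 it was -0.66, with 0 above and 5 below the remaining controls, beside 10.7% of all genes below. With the array medians set equal it was -0.95, with 0 above and 7 below, beside 13.5% of all genes below. Chodl, a marker of fast motor neurons, had 37, 68.9 and 54.2 against 354, 483 and 86.6 and a difference of -2.25 ± 0.66 (-3.00 without control replicate 3). Nefh, the heavy neurofilament chain, had 454, 508 and 775 against 3126, 1044 and 843 (-1.31 ± 0.41), with control replicate 1 far above the other controls. Nefm, the medium chain, had 171, 95.1 and 258 against 2426, 335 and 148, and its difference of -1.61 ± 0.66 was -0.46 without that array. Nefl, the light chain, had 10625, 7746 and 14872 against 13679.6, 26846 and 12989.5, with overlap and a difference of -0.65 ± 0.48. Calcb, a calcitonin gene-related peptide, had 714, 171 and 785 against 1170.1, 2095 and 691 and overlapped (-1.38 ± 0.62), with a difference of -0.67 without G93A replicate 2. Peripherin, Prph, differed by -0.95 ± 0.42, while its 3 other tested probe sets had positive values.

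Dynein carries cargo along axons towards the cell body and kinesins carry it outwards. Of 23 genes of dynein and dynactin 14 had a negative difference, and 1 lay above and 7 below the controls, with a median of -0.32 (leave-one-out -0.45 to -0.17, highest without control replicate 1). Dync1i1, the neuronal intermediate chain of dynein, had 134, 222 and 104 against 423, 339 and 257 (-1.19 ± 0.31). Dctn3, a dynactin subunit, had 114, 53.2 and 164 against 751, 201 and 218, and its difference of -1.68 ± 0.52 was -1.07 without control replicate 1. Bicd2, an adaptor that links dynein to cargo, lay the other way with 2819, 1188 and 1461 against 258, 909 and 639 (1.68 ± 0.44). Of 25 kinesin genes 2 lay above and 2 below, with a median of 0.07. Klc1, a kinesin light chain, had 242, 258 and 488 against 2079, 884 and 556 (-1.69 ± 0.41). Among 35 tubulins and microtubule proteins 3 lay above and 4 below. Tuba1a, the main neuronal alpha-tubulin, had 4577, 5941 and 7098 against 13271, 21482 and 13336 (-1.43 ± 0.48), with all G93A signals well below the lowest control. Map2, of dendritic microtubules, had low signals and a difference of -2.35 ± 0.72.

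Synaptic genes were mostly unresolved. Of 42 genes of synaptic vesicles and SNARE function 0 lay above and 4 below (median -0.26). Nsf, the ATPase that takes SNARE complexes apart, had 354, 308 and 348 against 1458, 519.7 and 406 (-1.01 ± 0.43), and its partner Napg had 227, 80.3 and 135 against 557, 267 and 244 (-1.30 ± 0.40). In the inhibitory synapse, Gphn, the scaffold gephyrin, had 81.4, 7 and 68.4 against 164, 179.9 and 138 (-2.24 ± 0.59). This difference was -1.10 without G93A replicate 2, and the other tested probe set had 2.65. The glycine receptor subunit Glrb had 53.1, 7.2 and 71.7 against 394, 99.6 and 92, and its difference of -2.35 ± 0.71 was -1.31 without G93A replicate 2 and -1.67 without control replicate 1. Gad1, the GABA-making enzyme of interneurons, had 37.3, 108 and 68 against 599, 151 and 141 (-1.85 ± 0.73, and -1.17 without control replicate 1). Of 16 glutamate receptor genes 1 lay above and 0 below, and of 34 ion channels 3 above and 1 below, both near the background. Of 25 genes of calcium pumps and buffers 1 lay above and 4 below, among them the calcium sensor Hpcal1 with 233, 168 and 119 against 498, 535 and 260.4 (-1.30 ± 0.37).

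Each list of oxidative phosphorylation genes had a negative median. Most members were in the brighter part of the genes: 17 of 18 in the ATP synthase, 33 of 35 in complex I and 23 of 28 in complexes II, III and IV. Their counts are to be read beside the shares there, 8.83% above and 9.63% below the controls. A median difference over the brighter genes alone is not given here. In the ATP synthase, the enzyme that makes ATP from the proton gradient, 0 of 18 tested genes lay above and 6 below the controls, with a median of -0.58 (leave-one-out -0.80 to -0.52). Atp5md, a small subunit at its base, had 556, 536 and 518 against 2653, 3358 and 1302, nearly the same in all G93A animals, and a difference of -2.08 ± 0.44. Atp5g3, which encodes the c-ring subunit, had 942, 1271 and 1842 against 3676, 3232 and 3198 (-1.37 ± 0.36). Atp5a1, the catalytic-head alpha subunit, had 1065, 1729.5 and 2024 against 6589, 4746 and 2118 (-1.38 ± 0.39), with control replicate 3 just above the highest G93A animal. Atp5j and Atp5h, of the stalk, had -1.12 ± 0.31 and -0.97 ± 0.32.

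In complex I, the NADH dehydrogenase, 2 of 35 genes lay above and 9 below, with a median of -0.27 (leave-one-out -0.32 to -0.15, highest without G93A replicate 1). Ndufab1, which also serves as the mitochondrial acyl carrier protein, had 80.2, 63.6 and 56.8 against 235, 231 and 219.9 and a difference of -1.79 ± 0.34 (limma adjusted p = 0.0505). Its signals lay close together within each group. Ndufa1, an accessory subunit, had 1999, 2591 and 1714 against 4968, 7890.1 and 4005 (-1.38 ± 0.32), and Ndufb3 had 203, 237 and 249 against 665, 582 and 343 (-1.16 ± 0.40). Subunits that lay the other way were Ndufa13, with 12889, 9299 and 10080.4 against 3287, 5673 and 8802 (0.96 ± 0.38), and Ndufv1 with 0.97 ± 0.33. Ndufv1 had 1 of 2 other tested probe sets at the opposite sign. In complexes II, III and IV 2 of 28 lay above and 6 below, with a median of -0.16 (leave-one-out -0.45 to -0.13, lowest without control replicate 1). Sdha, the flavoprotein of complex II, had 329, 628 and 382 against 2331, 930.5 and 639.7 (-1.38 ± 0.42). Cycs, cytochrome c, had 2037, 1546 and 1670.2 against 3186, 5721 and 2737 (-1.08 ± 0.37). Cox17, a copper chaperone for complex IV, had 848, 1149 and 614 against 1733, 1588 and 1515 (-0.93 ± 0.31), and Cox7a2l, which helps complexes assemble into larger units, had 735, 1814 and 1364 against 4342, 3285 and 2424 (-1.42 ± 0.35).

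**Figure D3:**
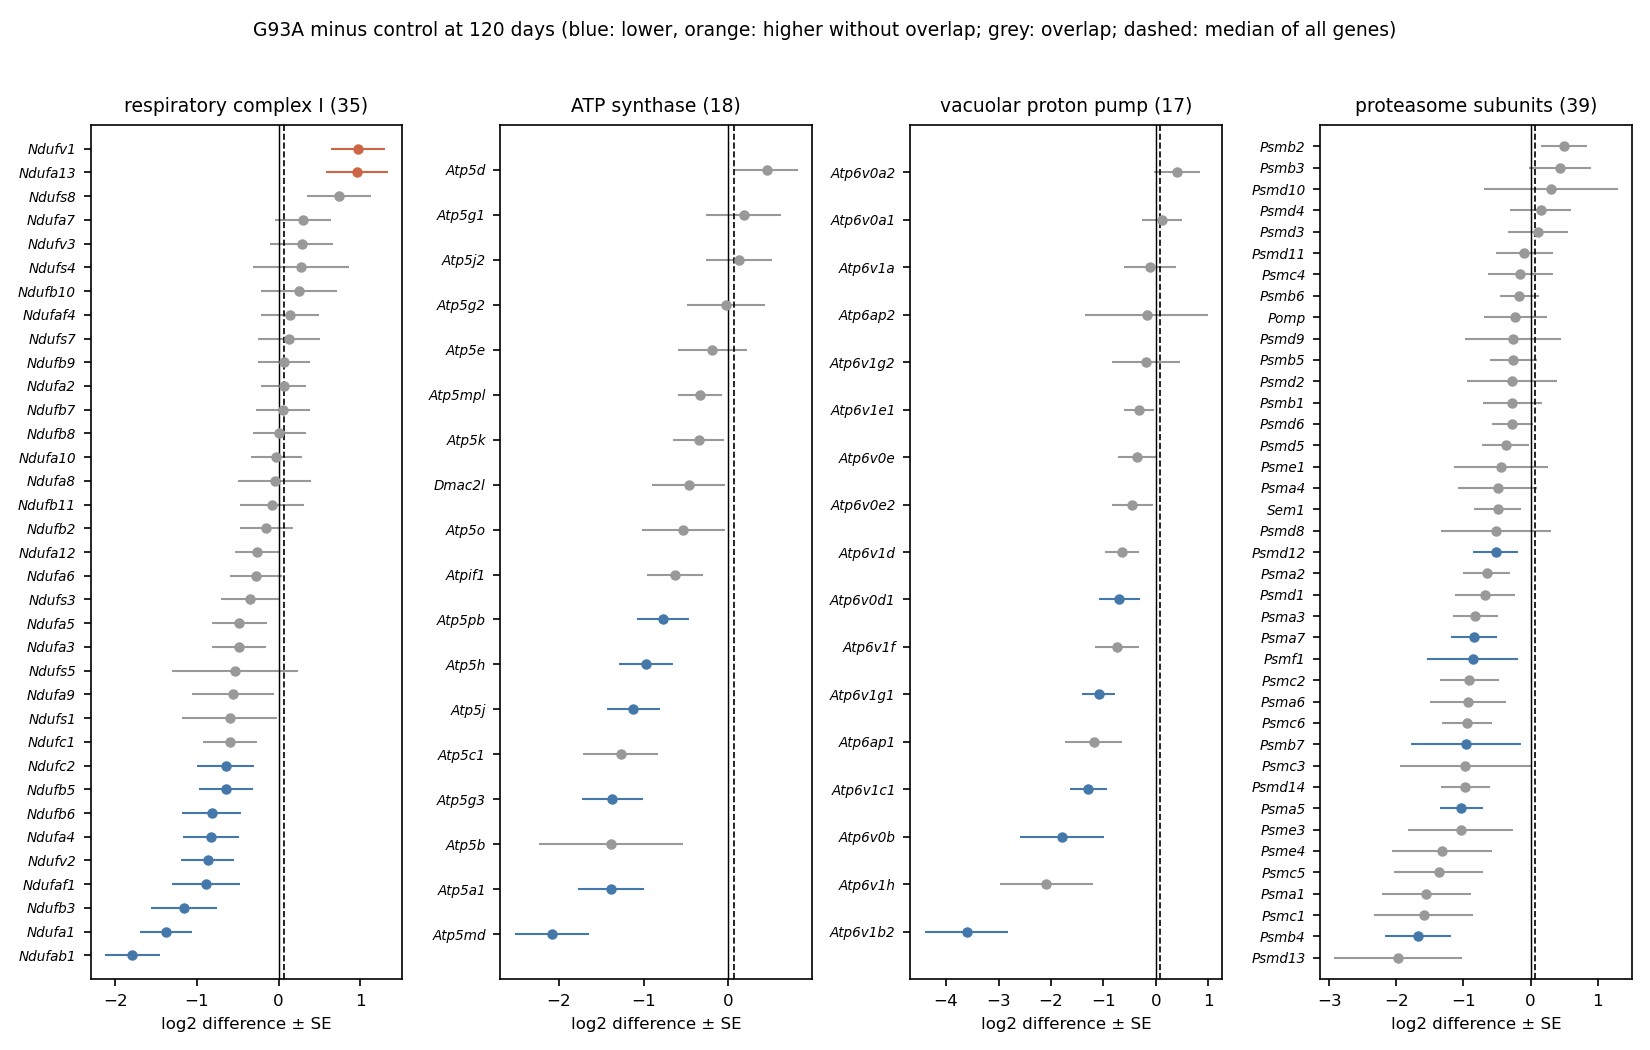
Log2 difference (G93A minus control, 120 days) with its standard error for each tested member of complex I, the ATP synthase, the vacuolar proton pump and the proteasome, blue or orange where the animals of the groups did not overlap downward or upward. The 2 orange points are Ndufv1 and Ndufa13 of complex I, and the other 3 panels hold blue and grey points only.

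Mitochondrial carriers and import genes had 2 of 36 above and 9 below (median -0.25). Slc25a3, the phosphate carrier that feeds the ATP synthase, had 1007, 1647 and 1399 against 4688, 4436 and 2221 (-1.44 ± 0.36). The outer-membrane channels Vdac2 and Vdac3 had -1.51 ± 0.52 and -0.89 ± 0.31, both without overlap. Of 28 genes of the TCA cycle and pyruvate dehydrogenase 1 lay above and 4 below. Fh1, fumarase, had 178, 178 and 369 against 434, 402 and 479.9 (-0.95 ± 0.36). Of 20 glycolytic genes 1 lay above and 1 below, with a median of -0.04. The gene below was Eno2, the neuronal enolase, with 676, 819 and 815 against 5991, 1196 and 1189, whose difference of -1.41 ± 0.42 was -0.64 without control replicate 1.

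Chaperones, proteasome subunits and ubiquitin genes also had negative medians. These too were mostly brighter genes (39 of 47, 32 of 39 and 31 of 34), among which 8.83% lay above and 9.63% below the controls. Of 47 heat shock proteins and chaperones 2 lay above and 9 below, with a median of -0.40 (leave-one-out -0.79 to -0.29, lowest without control replicate 3). Dnajc5, a co-chaperone of synaptic vesicles, had 219.6, 283 and 220 against 1254, 587 and 440.3 (-1.52 ± 0.36), though 2 of its 3 other tested probe sets had positive values. Cct4 and Cct7, subunits of the chaperonin that folds actin and tubulin, had -1.54 ± 0.37 and -0.84 ± 0.30, and Hsph1, a nucleotide exchange factor of the Hsp70 system, -1.27 ± 0.36. Hspd1, the mitochondrial chaperonin, had 87.8, 55.7 and 128 against 1366, 215 and 168, and its difference of -2.10 ± 0.54 was -1.16 without control replicate 1. Of 39 proteasome subunits 0 lay above and 6 below, with a median of -0.52 (leave-one-out -0.80 to -0.43). Psmb4 had 91.8, 66.1 and 133 against 553, 203 and 236 (-1.68 ± 0.49), and Psma5 had 641, 659 and 799 against 1523, 1837 and 1021 (-1.03 ± 0.32). Of 34 genes of ubiquitin conjugation and removal 1 lay above and 6 below. Uba3, of the NEDD8-activating enzyme, had 144, 109.8 and 115 against 603, 328 and 227 (-1.54 ± 0.39). Otub1, a deubiquitinase, was the gene above the controls, with 543, 264 and 277 against 166, 207 and 236 (0.76 ± 0.33).

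Among RNA-binding and splicing proteins 5 of 64 lay above and 12 below, with a median of -0.27 (leave-one-out -0.36 to -0.14, highest without control replicate 1). Hnrnpdl had 482, 794 and 563 against 2824, 1915 and 939 (-1.52 ± 0.38). Snrpe, a core protein of the spliceosomal particles, had 542, 459 and 369 against 869, 1254 and 859 (-1.12 ± 0.29). Matr3, a nuclear matrix protein mutated in some families with amyotrophic lateral sclerosis, had 625, 777 and 836 against 3296, 1654 and 983 (-1.24 ± 0.38). Of the 18 mouse orthologues of such disease genes 1 lay above and 2 below, with a median of -0.14 (leave-one-out -0.52 to -0.07, lowest without control replicate 3). Sod1 itself had 294, 377 and 449 against 1577, 134 and 213, a difference of 0.05 ± 0.56, and the sources used here do not say whether its probe set detects the human transgene. Without control replicate 1, the highest of the controls, the Sod1 difference was 1.12.

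The remaining groups held fewer genes outside the range of the controls, or held them in both directions. Of 44 cytosolic ribosomal proteins 1 lay above and 0 below (median 0.09), the 1 being Fau with 436, 266 and 426 against 154, 162 and 191 (1.13 ± 0.33). Rpsa overlapped at 0.88 ± 0.36. Of 41 translation factors 4 lay above and 5 below, such as Eif6, a factor of the large ribosomal subunit, with 198, 221 and 219 against 551, 387 and 351 (-0.99 ± 0.32). Of 35 antioxidant genes 1 lay above and 5 below. Gpx4, the glutathione peroxidase of membrane lipids, had 801, 674 and 516 against 1126, 1606 and 1182 (-0.98 ± 0.27), and Prdx4, a peroxiredoxin of the secretory pathway, had 74.9, 31.7 and 48.5 against 153, 111 and 116 (-1.37 ± 0.48). Of 24 genes of the S to M phases 3 lay above and 1 below, and Mki67, a proliferation marker, overlapped at 1.78 ± 0.77. The Mki67 difference was 0.77 without control replicate 1 and 2.44 without G93A replicate 1. Of 44 Rab GTPases 1 lay above and 4 below: Rab12 had 128, 197 and 168 against 54.5, 36.3 and 72 (1.63 ± 0.46) and Rab14 484, 684 and 568 against 1657, 1193 and 971 (-1.12 ± 0.35). Of 29 cholesterol synthesis genes 4 lay above and 3 below, with Idi1, an enzyme of isoprenoid synthesis, at -1.59 ± 0.44. Of 18 oligodendrocyte and myelin genes 1 lay above and 0 below (median 0.06), and Mbp, myelin basic protein, differed by -0.02 ± 0.38, with 6 of its 7 other tested probe sets at the opposite sign. Among endothelial genes 2 of 20 lay above and 2 below, and Itm2a, a membrane protein, had 203, 175 and 239 against 698, 593 and 318 (-1.32 ± 0.37). The haemoglobin gene Hba-a1 had 26.6, 58.5 and 63.9 against 4.5, 5.2 and 48.7, overlapping, with 2.15 ± 0.84 (1.54 without control replicate 1 and 3.26 without control replicate 3). Of the 5 tested erythrocyte genes 1 lay above and 0 below, and their median was 1.32 (leave-one-out 0.50 to 1.56, lowest without G93A replicate 1).

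Further lists are given as counts, beside 9.47% of all genes above and 6.64% below the controls. Of 15 interneuron markers 1 lay above and 2 below, of 27 core autophagy genes 2 above and 0 below, and of 68 mitochondrial ribosomal proteins 3 above and 7 below. Of 25 genes of fatty acid oxidation 1 lay above and 2 below, and of 39 axon guidance genes 1 above and 2 below. Of 21 cytokines and their receptors 3 lay above and 1 below. Neurotrophic ligands and receptors had 4 of 25 above (16%) and 0 below, and glycine and GABA receptors 2 of 8 each way (25%), in a short list. Their medians ranged from -0.46 to 0.24.

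The levels of these lists in single arrays show which animals carry the pattern. A list level is the mean log2 signal of its members minus the mean over all genes on that array. For the microglial list the late G93A arrays stood at 0.53, 0.27 and 0.61 and the late controls at -0.88, -0.32 and -0.15, against -1.15 to -0.19 on the 12 arrays of the earlier ages. The 3 late G93A arrays were the only ones of the 18 above 0 in this list. For the ATP synthase list the late G93A arrays stood at 2.98, 2.80 and 3.04, and the late controls at 3.75, 3.77 and 3.58. The controls of 60 and 90 days had 2.74, 2.42 and 2.63 and 3.16, 3.29 and 3.17, and the G93A animals 3.02, 3.02 and 2.73 and 3.46, 3.14 and 3.34. Every late control lay above every other array in this list, and the late G93A animals lay within the range of the earlier ages. These levels carry no test.

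**Figure D4:**
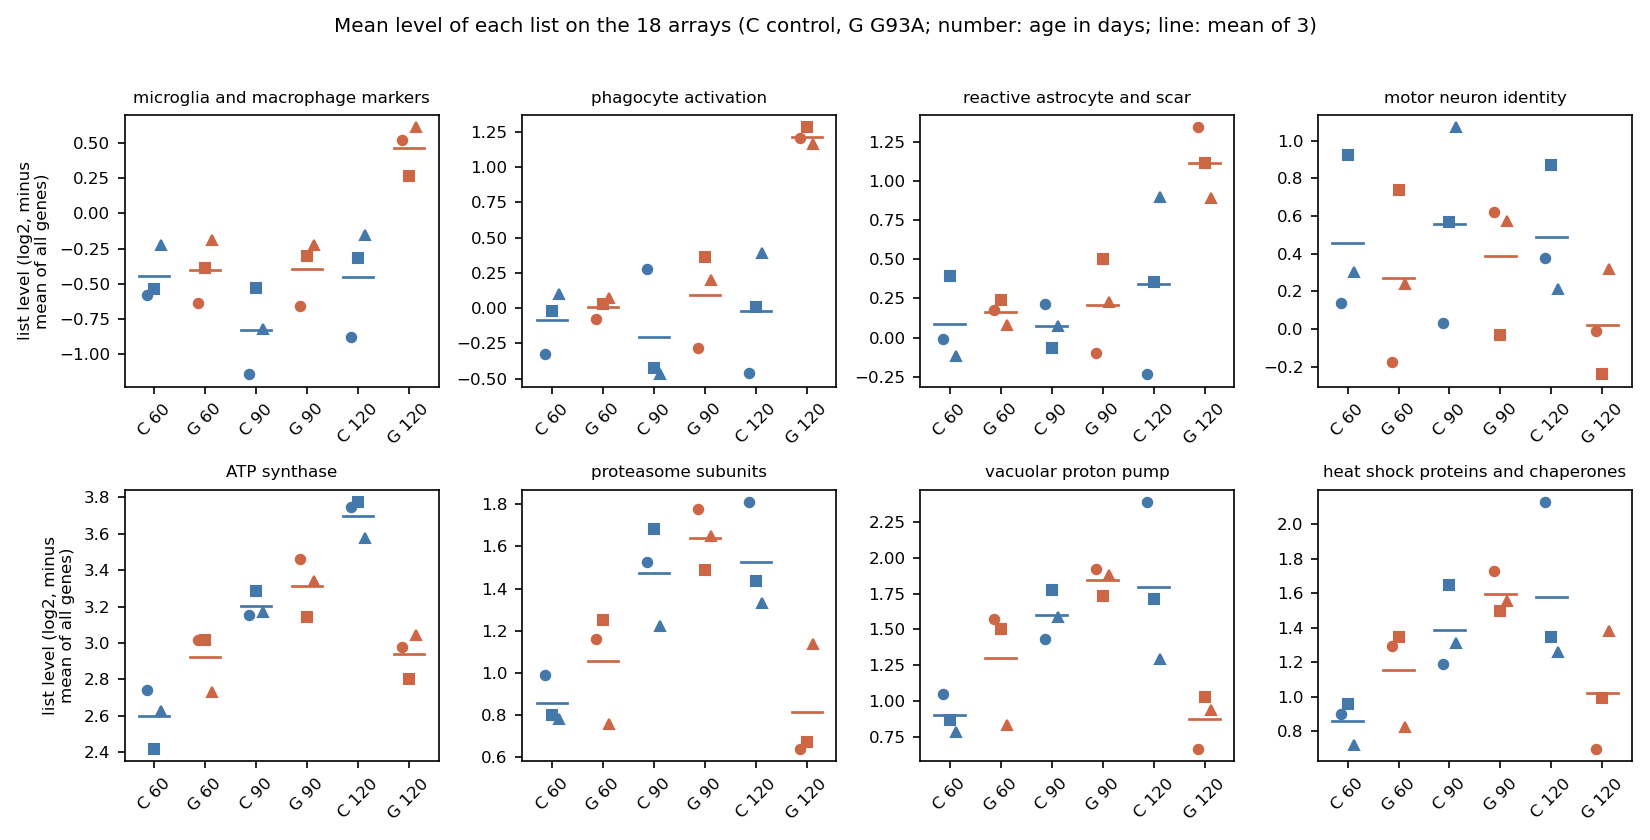
List level (mean log2 signal of the members minus the array's mean over all genes) of each of the 18 arrays, control (C, blue) and G93A (G, orange) by age in days, with a line at the mean of 3. The 3 G93A arrays of 120 days lie above all others in the microglial and phagocyte panels, and in the ATP synthase panel the 3 controls of 120 days are the highest and the 60-day controls the lowest on average.

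Whether the difference at 120 days departed from that at the earlier ages was tested as the 120-day difference minus the mean of the differences at 60 and 90 days, in the same limma fit. Of the 16565 probe sets 148 (0.893%) passed the adjusted threshold, 20 more positive at 120 days (0.121%) and 128 more negative (0.773%), of 2766 (16.7%) at an unadjusted p below 0.05. The count of 20 fell to 0 when G93A replicate 1 of 90 days was omitted, and omitting the late control replicate 3 gave 125. For the 128 negative calls, omitting the late control replicate 1 gave 16 and omitting the late control replicate 3 gave 359. The 148 represent 125 named genes and some probe sets without a name, and 2 of these genes, Mt1 and Tsc22d1, also passed at 120 days alone. The 128 had median differences of 1.55 at 60 days, 0.54 at 90 days and -1.44 at 120 days. All 128 were positive at 60 days and negative at 120 days. Of the 128, 124 were lower in late than in earlier G93A animals, and 124 were higher in late than in earlier controls. Earlier is here the mean of 60 and 90 days, and in some genes mainly the 60-day controls stood apart. The control log2 means at 60, 90 and 120 days were 4.25, 8.59 and 9.03 for Etnk1 and 2.76, 7.42 and 7.86 for Atp6v1b2. They were 5.13, 7.98 and 8.22 for Emc7, whereas Atp5a1 had 9.36, 10.54 and 11.98. The 20 had medians of -1.07, -0.55 and 2.26. These values belong to the contrast that chose the probe sets and are a description.

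Against the earlier ages, Mt1 differed by 1.96 ± 0.44 (limma adjusted p = 0.0335), from 0.18 at 60 and 0.33 at 90 days. C1qa differed by 2.58 ± 0.58 (limma adjusted p = 0.0335), from -0.12 and -0.04. Ccl5 differed by 4.99 ± 1.12 (limma adjusted p = 0.0335), from -1.14 and -2.06. For these immune and metal genes the earlier differences were near or below 0. Within each genotype, the change from the mean of 60 and 90 days was also taken, as a value without a test. It was 3.19 ± 0.31 in G93A and 1.23 ± 0.31 in controls for Mt1, and 3.43 ± 0.79 and -1.55 ± 0.79 for Ccl5. For C1qa it was 0.51 ± 0.41 in G93A and -2.07 ± 0.41 in controls, so mainly the controls moved. Hvcn1, a voltage-gated proton channel of leukocytes, differed by 4.91 ± 1.15, and Otub1 by 1.76 ± 0.41. Tyrobp, by contrast, already had 2.81 and 1.43 at 60 and 90 days and did not pass, at 0.39 ± 0.71. Controls also changed more than G93A animals in P2ry12 (-2.25 against -0.12), Hba-a1 (-2.37 against -0.22) and Med14 (-2.85 against 1.06). The same held for Atf3 (-1.70 against 0.85) and Sprr1a (-1.53 against 0.53). In others the G93A change was the larger, such as Lgals3 (3.43 against 0.30 in controls) and Gfap (2.95 against 0.75).

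On the negative side, several energy and proteostasis genes named above passed. Atp6v1b2 went from 4.07 at 60 and 0.19 at 90 days to -3.61, a change of -5.74 ± 0.97 (limma adjusted p = 0.00792). Atp5a1 went from 1.53 and 0.44 to -1.38 (-2.37 ± 0.47, limma adjusted p = 0.0207), and the phosphate carrier Slc25a3 from 1.56 and 0.44 to -1.44 (-2.44 ± 0.44, limma adjusted p = 0.0133). Hspd1 changed by -3.13 ± 0.66, Cox7a2l by -2.08 ± 0.42, Hnrnpdl by -2.48 ± 0.46 and Uba3 by -2.56 ± 0.48. Within each genotype, the change from the earlier ages, without a test, differed between these genes. Mainly the controls moved in Atp5a1 (-0.34 in G93A, 2.03 in controls) and Cox7a2l (-0.03 and 2.05). Both moved in Atp6v1b2 (-2.97 and 2.77), Slc25a3 (-1.31 and 1.14) and Hnrnpdl (-1.11 and 1.37). The G93A change was the larger in Hspd1 (-2.24 and 0.89) and Uba3 (-2.30 and 0.26). Tsc22d1 changed by -2.85 ± 0.48 (limma adjusted p = 0.00792), from 1.46 and -0.23. Emc7, of the membrane protein insertion complex, changed by -3.07 ± 0.49 and Etnk1, ethanolamine kinase, by -3.98 ± 0.74. Ndufab1, with 0.24 and -0.51 earlier, and Atp5md, with 0.71 and -0.64, did not pass this test.

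**Figure D5:**
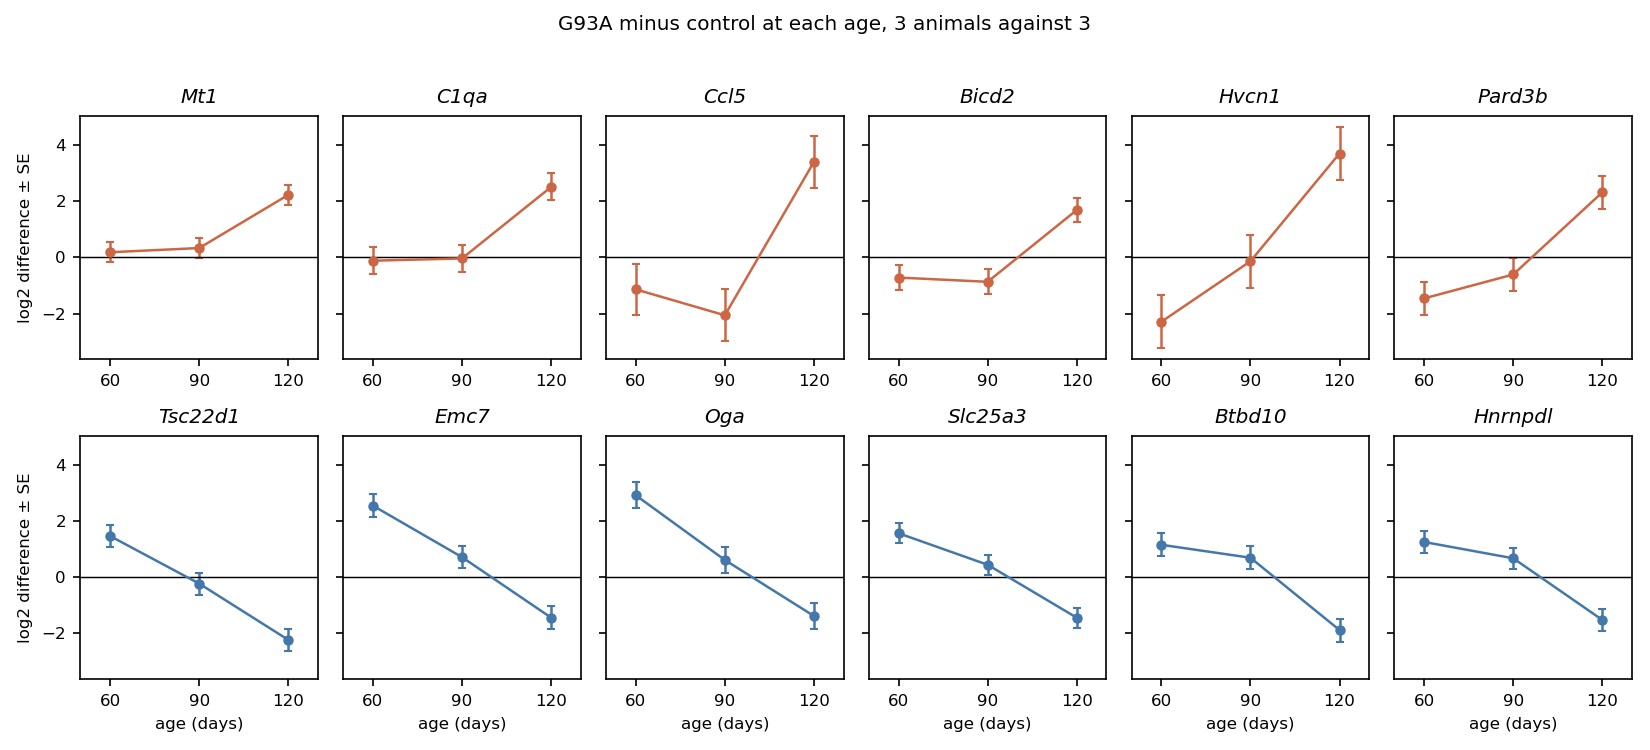
Log2 difference G93A minus control with its standard error at 60, 90 and 120 days, 3 animals against 3, for 6 genes more positive (top) and 6 more negative (bottom) at 120 days than before. Mt1 and C1qa lie near 0 until 90 days, while Slc25a3 goes from 1.56 at 60 days to -1.44 at 120 days.

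Set against 90 days alone, without the 60-day arrays, 0 probe sets passed the adjusted threshold of limma (0%), with 1706 at an unadjusted p below 0.05 (10.3%). Without control replicate 1 of 120 days 22 probe sets passed in place of 148, and without control replicate 3 of that age 484.

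Leaving out 1 of the arrays moved the 120-day difference of 28 named genes by over 1.5-fold, and for 22 of them control replicate 1 was such an array.

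A gene is given here by 1 probe set, and for some genes others disagreed. Of the 132 genes named, 56 had another tested probe set, and in 18 of these at least 1 had the opposite sign at 120 days: Aff4, Atp6v1c1, Atp6v1g1, Bicd2, Canx, Cct4, Csnk2a1, Dnajc5, Eif3e, Emc7, Gphn, Mbp, Ndufv1, Oga, Prph, Psma5, Slc39a6 and Uba3.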

How the data were processed

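The 18 arrays, 1 per mouse, were grouped by the sample labels. MAS5, named in the submitters' processing notes, gave the deposited signal intensity of each probe set on a linear scale, and its version and settings are not stated there. Values under 1 were raised to 1 (0.239% of those at 120 days) and log2 was taken, without further normalization. Of 22690 probe sets, 64 controls were left out and 16565 lay above their array's median in at least 3 arrays. Symbols came from the platform annotation through single-gene probe sets (20380). In limma 3.58.1 (R 4.3.3) the 6 group means were fitted over all 18 arrays with 12 residual degrees of freedom and a trended empirical Bayes prior, and p-values were adjusted by Benjamini-Hochberg over all tested probe sets. The script was tested on simulated data. The number of arrays limits the precision. Replicate numbers did not pair the samples (correlations of deviations -0.12, -0.02 and -0.03). The 52 gene lists, some sharing genes, and the members were chosen with earlier results of these data known. Genes are named where they passed the threshold, where they were among up to 12 per direction of smallest p without overlap and at least 1.5-fold, or among up to 8 per list of smallest p, with Sod1, metallothioneins, neurofilaments, Prph, Gfap, Aif1 and Mbp always, and up to 10 per direction against the earlier ages. Alternatives covered scaling, offsets, filters, moderation, covariates and each array left out.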

Additional observations from a re-analysis of the deposited data

Results flagged for a closer look

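Of the 132 named genes tested, 38 had a 120-day genotype difference that departed from the mean of those at 60 and 90 days. The limma test of that difference gave adjusted p below 0.05. Over all probe sets, 148 of 16565 (0.893%) passed it. Part of the 38 were named because they passed this test, and others for a small p at 120 days on the same arrays. The count of 38 thus depends on the naming and is no finding about these genes as a group. The values are log2 differences at 120 days minus the mean of the earlier ones, and calls depend on the settings given in the next section. On the positive side were the immune genes Ccl5 (4.99), Hvcn1 (4.91) and C1qa (2.58), the metallothionein Mt1 (1.96), the deubiquitinase Otub1 (1.76) and the dynein adaptor Bicd2 (2.47). The others were Pard3b (3.34), Ubxn1 (3.03), Csnk2a1 (2.39) and Nfic (1.83), of which Pard3b is a cell polarity gene and Csnk2a1 a kinase subunit. On the negative side the mitochondrial genes were Atp5a1 (-2.37), Atp5g3 (-1.97), Atp5j (-1.75), Slc25a3 (-2.44), Vdac2 (-2.61), Cox7a2l (-2.08), Cox17 (-1.64), Ndufa1 (-1.73) and Hspd1 (-3.13). The proton pump subunit Atp6v1b2 (-5.74) had the largest size of the 38. Of synaptic, transport and interneuron genes there were Dnajc5 (-1.99), Napg (-2.07), Rab14 (-2.12), Klc1 (-2.22) and Gad1 (-3.75). Of protein and RNA handling there were Cct4 (-2.18), Uba3 (-2.56), Eif3e (-3.02), Emc7 (-3.07), Hnrnpdl (-2.48) and Oga (-3.14). The rest were Tsc22d1 (-2.85), Aff4 (-3.92), Etnk1 (-3.98), Btbd10 (-2.80), Actr6 (-2.75), Lnx1 (-2.28) and Idi1 (-2.24).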

How the results depend on the processing

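At 120 days 4 probe sets passed as reported. The count was 0 with only the 6 arrays of that age and with a filter of 9 of 18 arrays, and 1 under quantile normalization, centring, array weights or moderation without a trend. It was 8 with robust moderation or the Gapdh ratio as covariate, 9 with the replicate block, 23 and 29 with 16 or 32 added to the signal, and 52 with the hybridization-control level as covariate. Leaving out 1 array gave 0 to 141 probe sets: 141 without control replicate 3 of 120 days, 1 without control replicate 1, and 0 without control replicate 2 or G93A replicate 1 of that age. Against the earlier ages the count of 148 became 557 with centring, 303 and 337 with 16 or 32 added, 194 with the replicate block, 35 with the Gapdh covariate, 12 with the hybridization covariate and 0 without a trend. It was 22 to 484 with 1 array left out, and 0 against 90 days alone, a setting chosen after seeing the data. The causes were not tested. Mt1 kept its call at 120 days in 21 of 31 alternatives, Tsc22d1 in 18 of 31, Lgals3 in 15 of 31 and Galnt2 in 10 of 30, without a change of sign in any of these. Sod1, at 0.05, ranged from -0.66 to 1.12 with 1 array left out and became -0.27 with centring, -0.01 with 32 added, 0 with the Gapdh covariate, and -0.66, -0.32 and -0.10 without control replicate 2, control replicate 3 or G93A replicate 3 of 120 days. Mbp, at -0.02, ranged from -0.23 to 0.22 and became 0.22 without control replicate 3 and 0.11 without G93A replicate 1. Over these 4 genes the call was kept 64 times and lost 59 times. The 38 genes called against the earlier ages kept that call 766 times and lost it 410 times, from 10 of 31 alternatives for Vdac2 to 29 of 31 for Atp6v1b2, Emc7 and Tsc22d1. It was kept in 11 of 30 for Hvcn1, 13 of 31 for Nfic, 14 of 31 for C1qa and Otub1, and 16 of 31 for Mt1. For the named genes without a call at 120 days, 3861 values stayed on that side with the same sign, 88 gained a call and 8 changed sign. Signals near the floor of 1 limit the sizes of weak genes.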
